A study of Mus musculus with 12 samples.

Results

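The 8 genes described here, Casp2, Casp6, Casp8, Casp9, Apaf1, Diablo, Xiap and Cycs, encode apoptotic caspases, the other parts of the apoptosome and a pair of proteins that set the threshold for caspase activity. They were taken by an exact match of these symbols to the names in the gene table, so that 8 of 55487 genes were followed. The match used no measured value, but the genes were chosen with earlier results of these data known. All 8 had a group mean above 1 FPKM, a unit that scales fragments to transcript length and library size, in 1 or more groups and were tested together with the other genes that passed this filter, 16471 in all.

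The data were 12 libraries of poly(A) RNA from mouse retina, 2 in each of 6 groups, with RNA of more than 3 retinas in a library. WT retinas came from C57BL/6J mice, and JNK3 KO retinas from mice with a germline loss of JNK3 (Jnk3-/-, gene Mapk10). The shPax6 retinas came from WT mice whose eyes received the vector AAV2.7m8 at 2 months of age. This vector carried GFP and, under the U6 promoter, a short hairpin RNA against Pax6. Each genotype was injected into the vitreous with 1 μL of PBS or with 1 μL of 40 mM NMDA (40 nmol), an agonist of ionotropic glutamate receptors that kills retinal neurons by excitotoxicity. The interval between injection and collection and the age of the other mice are not given in the sources used here for these libraries. No library of a scrambled hairpin was among the 12, so that an effect of the hairpin and an effect of the virus cannot be told apart. Nothing in the labels ties the 2 libraries of a group to separate sets of animals, and the p-values therefore measure the spread between libraries, which may be technical.

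In mammalian cells a mitochondrial death signal releases cytochrome c, encoded by Cycs, which binds APAF1 and lets it assemble into the apoptosome, the wheel-shaped complex on which procaspase 9 becomes active. Caspase 9 then cleaves the executioner caspases, and caspase 6 is one of them. Caspase 8 is the initiator that death receptors activate, and caspase 2 is an initiator activated on a separate platform. XIAP binds and inhibits caspase 9 and executioner caspases, and DIABLO (also called SMAC), released from mitochondria with cytochrome c, displaces XIAP from them. Most of this regulation acts on proteins, and the libraries measured RNA only.

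The promoters of Cycs, Apaf1, Casp2 and Xiap are shown because the RNA of these genes moved most after NMDA in WT retinas. Each run holds 250 bases before the start site and 50 after it, 5′ to 3′ on the strand of the gene, as given by RefSeq on GRCm38.p6. Capitals mark the matches on either strand to 6 motifs, the CRE, the AP-1 site, the CCAAT box, the GC box, the E-box and the NRF1 site, whose letters are spelled out beside their counts except for NRF1. The matches did not overlap in the windows shown.
Cycs, chr6:50566520-50566819, minus strand: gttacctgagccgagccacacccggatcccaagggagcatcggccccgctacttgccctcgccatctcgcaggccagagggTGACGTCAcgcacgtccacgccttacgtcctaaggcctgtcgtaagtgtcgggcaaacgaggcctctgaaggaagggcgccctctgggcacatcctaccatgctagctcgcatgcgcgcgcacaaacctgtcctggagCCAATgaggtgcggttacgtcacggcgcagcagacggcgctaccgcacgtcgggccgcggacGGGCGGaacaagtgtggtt
Apaf1, chr10:91082694-91082993, minus strand: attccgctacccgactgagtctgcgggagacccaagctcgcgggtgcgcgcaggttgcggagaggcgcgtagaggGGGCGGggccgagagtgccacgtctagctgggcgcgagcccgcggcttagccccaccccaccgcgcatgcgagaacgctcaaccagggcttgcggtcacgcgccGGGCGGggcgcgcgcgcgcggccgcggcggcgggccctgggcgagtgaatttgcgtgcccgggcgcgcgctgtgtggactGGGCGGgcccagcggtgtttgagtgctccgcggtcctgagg
Casp2, chr6:42264735-42265034, plus strand: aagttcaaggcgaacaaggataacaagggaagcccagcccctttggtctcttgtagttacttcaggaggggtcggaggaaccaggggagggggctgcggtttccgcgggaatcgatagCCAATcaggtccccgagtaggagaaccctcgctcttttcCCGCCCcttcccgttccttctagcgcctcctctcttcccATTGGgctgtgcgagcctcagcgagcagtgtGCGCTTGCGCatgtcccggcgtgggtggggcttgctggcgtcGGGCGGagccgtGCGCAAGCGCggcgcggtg
Xiap, chrX:42067586-42067885, plus strand: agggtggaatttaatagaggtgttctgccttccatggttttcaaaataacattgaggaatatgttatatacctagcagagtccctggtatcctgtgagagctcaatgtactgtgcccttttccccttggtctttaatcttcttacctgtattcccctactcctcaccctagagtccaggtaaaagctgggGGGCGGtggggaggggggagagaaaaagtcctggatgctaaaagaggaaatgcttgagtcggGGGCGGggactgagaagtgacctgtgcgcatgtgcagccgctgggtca

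The Cycs promoter was the only one among those of the 8 genes with a full CRE (TGACGTCA), the site of CREB and ATF factors, 169 bases before the start, and 1.79% of 32851 RefSeq promoters of this length held one. Only Casp2 carried the NRF1 letters, at 2 places, against 4.60% of all promoters. The AP-1 letters (TGANTCA), the site of JUN and FOS dimers, were found in no promoter of the 8 genes, against 7.81% of all promoters. A GC box, searched as GGGCGG, was found for 7 of the 8 genes (35.7% of all promoters), with Casp8 as the exception, and a CCAAT box for 4, Casp2, Casp8, Cycs and Diablo (37.4%). The E-box letters (CACGTG) were found for none of the 8 genes, against 7.15% of all promoters. The Casp8 window had a G and C content of 42.0%, whereas those of Cycs, Apaf1 and Casp2 had 65.0%, 74.7% and 63.7% (median of all promoters, 52.7%). Xiap has 3 windows in RefSeq, and the one shown ends in the first exon of its coding transcript Xiap-203.

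Facts of all libraries that touch the values below come first. Pax6 had 173.48 and 177.30 FPKM in the libraries of WT retinas under PBS, and 94.56 and 92.84 in those of shPax6 retinas, a log2 difference of −0.90. Mapk10 had 42.79 and 50.72 FPKM in the libraries of WT retinas under PBS, and 9.47 and 8.75 in JNK3 KO retinas under PBS. After NMDA neither gene was higher in WT retinas than in both libraries of the other genotype. Pax6 then had 55.42 and 53.81 FPKM in WT and 67.52 and 58.73 in shPax6 retinas. Mapk10 had 8.98 and 6 FPKM in WT NMDA and 6.65 and 13.77 in JNK3 KO NMDA libraries. Defining markers of every retinal neuron class and of Müller glia were detected in the libraries. The FPKM of a library summed to 541210 to 576922 in 10 libraries, but to 805627 and 820180 in the WT NMDA libraries. In WT retinas the response to NMDA also followed transcript length, with a median log2 fold change of 1.03 for genes under 1 kb and −1.17 for genes over 4 kb (Spearman rho of −0.56 across 16452 genes, which are not independent replicates). The corresponding rho was −0.17 in shPax6 and 0.23 in JNK3 KO retinas. Log2 fold changes below are on the scale log2(FPKM + 0.1), each with its standard error, and a gene was called when its p, adjusted by Benjamini-Hochberg over all genes tested, was under 0.05.

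NMDA moved 5 of the 8 genes in WT retinas at the gene level. Apaf1, Cycs and Diablo rose, and Xiap and Casp2 fell. Casp6, Casp8 and Casp9 did not pass the test. Over all genes tested 26.0% were called higher and 33.8% lower, so that 3 and 2 of 8 is near the background. The median of the 8 log2 fold changes was 0.44, against −0.09 over all genes. In bulk retina, fewer cells of a type and less RNA per cell cannot be told apart. Retinal ganglion cell (RGC) markers summed to 727.61 to 755.94 FPKM in WT PBS and to 448.20 to 468.45 in WT NMDA libraries (13 markers tested, 11 called lower and 1 higher), while neutrophil markers summed to 212.66 to 235.68 and to 1948.67 to 1988.06 (7 tested, 5 called higher). The part of these shifts in the members' changes was not tested.

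**Figure D1:**
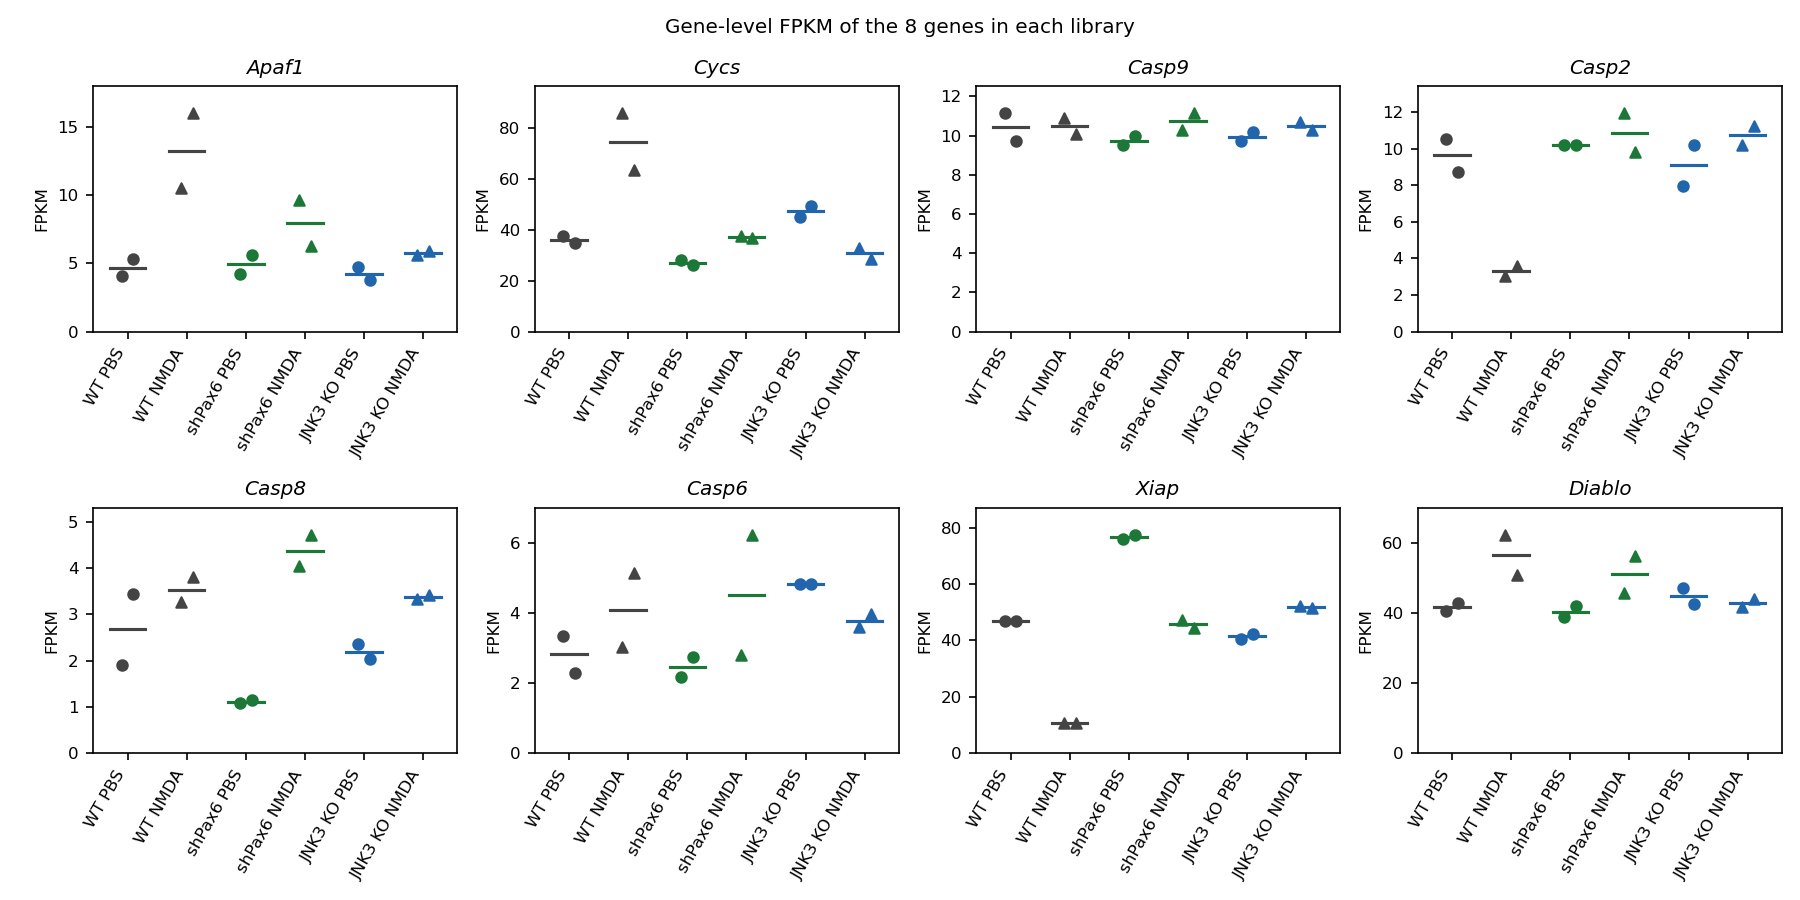
Gene-level FPKM (vertical axes, linear from 0) of the 8 genes in the 6 groups, with circles for PBS and triangles for NMDA libraries and a bar at the mean of the 2 libraries. The WT NMDA libraries are lowest of all for Xiap (10.75 and 10.62) and Casp2 (3.01 and 3.59) and highest of all for Cycs (85.95 and 63.57) and Apaf1 (10.53 and 16.02).

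Among the parts of the apoptosome, Apaf1 measured 4.06 and 5.29 FPKM in WT retinas under PBS, against 10.53 and 16.02 after NMDA. Both NMDA values lay above those of every other library. The log2 fold change was 1.47 ± 0.28 (SE, adjusted p = 0.00139), or 2.76-fold, and it was 0.90 by TPM, which divides each library by its own FPKM sum, and 2.23 after the length trend was removed. Cycs was at 37.70 and 34.79 FPKM under PBS and at 85.95 and 63.57 after NMDA, again without overlap, a rise of 1.03 ± 0.13 (adjusted p = 0.000137) that was 0.45 by TPM (adjusted p = 0.0204). Casp9 did not pass the test, with 11.13 and 9.71 FPKM under PBS and 10.90 and 10.09 after NMDA. Its log2 fold change was 0.01, with a 95% confidence interval of −0.24 to 0.26. The scale decided its direction, as it was −0.56 by TPM (adjusted p = 0.00276) and 0.63 after the length trend was removed (adjusted p = 0.00120). The length correction used the same length for a gene in all 12 libraries, whichever transcripts held its FPKM. That length was 3510 bases for Casp9 and 3927 for Apaf1.

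Xiap, the inhibitor, showed the clearest change of the 8 genes. Its level of 47.03 and 46.69 FPKM under PBS went to 10.75 and 10.62 after NMDA, the lowest values among the 12. The fall was −2.12 ± 0.06 on the log2 scale (adjusted p = 2.96e-08), which left 0.23 of the PBS level. The fall was smaller after the length trend was removed (−0.95 ± 0.06, adjusted p = 3.68e-06) and larger by TPM (−2.70 ± 0.06). Its antagonist Diablo moved the other way, from 40.58 and 42.89 FPKM to 62.27 and 50.89, a rise of 0.43 ± 0.12 (adjusted p = 0.0129) that did not pass without WT PBS replicate 1 or WT NMDA replicate 1 (adjusted p = 0.0773 and 0.105). That rise was small against the length trend of these libraries. It was −0.14 on the TPM scale and −0.02 after the length trend was removed.

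The initiator Casp2 fell from 10.51 and 8.74 FPKM to 3.01 and 3.59, a change of −1.52 ± 0.17 (adjusted p = 5.64e-05). No other library had Casp2 below 7.97 FPKM. Casp8 was at 1.91 and 3.44 FPKM under PBS and at 3.26 and 3.81 after NMDA, with overlapping groups and an adjusted p of 0.197, but it was called without WT PBS replicate 2 (0.85, adjusted p = 0.0247). Casp6, the executioner among the 8 genes, was at 3.35 and 2.30 FPKM under PBS and at 3.03 and 5.14 after NMDA (adjusted p = 0.297). The 2 libraries of a group differed by more than 1.5 FPKM in WT PBS for Casp8 and in WT NMDA and shPax6 NMDA for Casp6.

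The transcripts behind these gene values gave another picture. RSEM, which the authors used, divides reads between the transcripts of a gene, and a gene's FPKM is the sum over them. Reads shared between transcripts make each transcript's value less certain than the gene's, and a short transcript gains more FPKM per read than a long one. Of 54 annotated transcripts of the 8 genes, 31 passed the filter, and in WT retinas 4 of them were called higher and 9 lower after NMDA (11.7% and 23.5% of all 49940 transcripts tested).

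Apaf1 was the strongest case. Its coding transcripts Apaf1-201 (6577 bases) and Apaf1-202 (6433 bases) had 1.64 and 1.83 FPKM and 1.97 and 2.50 FPKM under PBS. After NMDA, Apaf1-201 was listed at 0 in both libraries (adjusted p = 0.00366) and Apaf1-202 at 1.35 and 1.27 FPKM (adjusted p = 0.458). The rise of the gene was carried by Apaf1-204, an annotated noncoding processed transcript of 511 bases, which went from 0 and 0.96 to 9.16 and 14.75 FPKM. By itself it missed the threshold (adjusted p = 0.0761), and it made up 9.07% of the gene's FPKM under PBS and 89.5% after NMDA. Both exons of Apaf1-204 lie inside the last exon of the coding transcripts.

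Casp9 hid a change of the same kind behind its level gene value. The coding transcript Casp9-201 (3897 bases) fell from 9.83 and 9.10 to 5.57 and 5.73 FPKM, a change of −0.73 ± 0.13 (adjusted p = 0.00315). Casp9-203, a noncoding processed transcript of 854 bases, was at 0.33 and 0 FPKM under PBS and at 5.33 and 4.34 after NMDA (adjusted p = 0.00234). It was listed at 0 in all 8 libraries of shPax6 and JNK3 KO retinas. Its exons, too, all lie inside the last coding exon, where the genes Cela2a and Ctrc run on the opposite strand. Both of those genes were listed at 0 in all 12 libraries.

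Transcripts of this kind moved in WT retinas across the table as well. Of all transcripts tested, 113 were noncoding and had every exon inside the last exon of a coding transcript of the same gene. Their median log2 fold change was 1.94 in WT, 0 in shPax6 and −0.07 in JNK3 KO retinas, and 31.0% of them were called higher in WT retinas against 11.7% of the other 49827 transcripts. The other transcripts had a median of −0.59 in WT retinas. These sets were not matched for transcript length, which the WT response followed as well. The part that length, RNA quality, coverage along the transcript or the division of reads had in these values was not tested.

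Cycs has 2 transcripts, the coding Cycs-202 (3123 bases) and Cycs-201 (607 bases, annotated as a retained intron). In WT retinas both rose after NMDA. Cycs-202 went from 18.12 and 17.76 to 25.65 and 26.36 FPKM, a rise of 0.53 ± 0.11 (adjusted p = 0.00673), and Cycs-201 from 19.59 and 17.03 to 60.29 and 37.20, a rise of 1.37 ± 0.42 (adjusted p = 0.0348). The coding transcript thus moved by less than the gene.

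For Xiap the coding transcripts nearly left the table in WT NMDA libraries. Xiap-203 (6542 bases) went from 26.46 and 10.56 FPKM to 0 and 0.84 (adjusted p = 0.00182), Xiap-204 (6670 bases) from 5.63 and 5.58 to 0 and 0.56 (adjusted p = 0.00464), and Xiap-210 from 1.81 and 2.88 to 0 in both (adjusted p = 0.00272). Xiap-202 ranged from 1.01 to 15.91 FPKM in the WT PBS libraries alone, so that reads were not divided between these near-identical transcripts in the same way in each library. Xiap-207, a noncoding processed transcript of 5407 bases that shares the long last exon, was at 8.82 and 9.19 FPKM under PBS and at 8.44 and 6.79 after NMDA (−0.25 ± 0.28, adjusted p = 0.536). Its share of the gene went from 19.2% to 71.2%.

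Diablo-203, the main coding transcript of Diablo (1576 bases), rose from 23.72 and 28.03 to 58.36 and 48.07 FPKM (1.04 ± 0.13, adjusted p = 0.000502), while the coding Diablo-207 and Diablo-201 fell to 0.36 and 0.51 FPKM and to 0 in both libraries. The same-strand gene Gm49027 overlaps Diablo and had 0 to 2.11 FPKM over the 12 libraries. Casp2-201, the coding transcript of Casp2 (3529 bases), fell from 6.34 and 5.67 to 2.78 and 3.59 FPKM (−0.90 ± 0.18, adjusted p = 0.00600). The short noncoding Casp2-206, near 1 FPKM under PBS, was listed at 0 in both NMDA libraries (adjusted p = 0.00569).

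**Figure D2:**
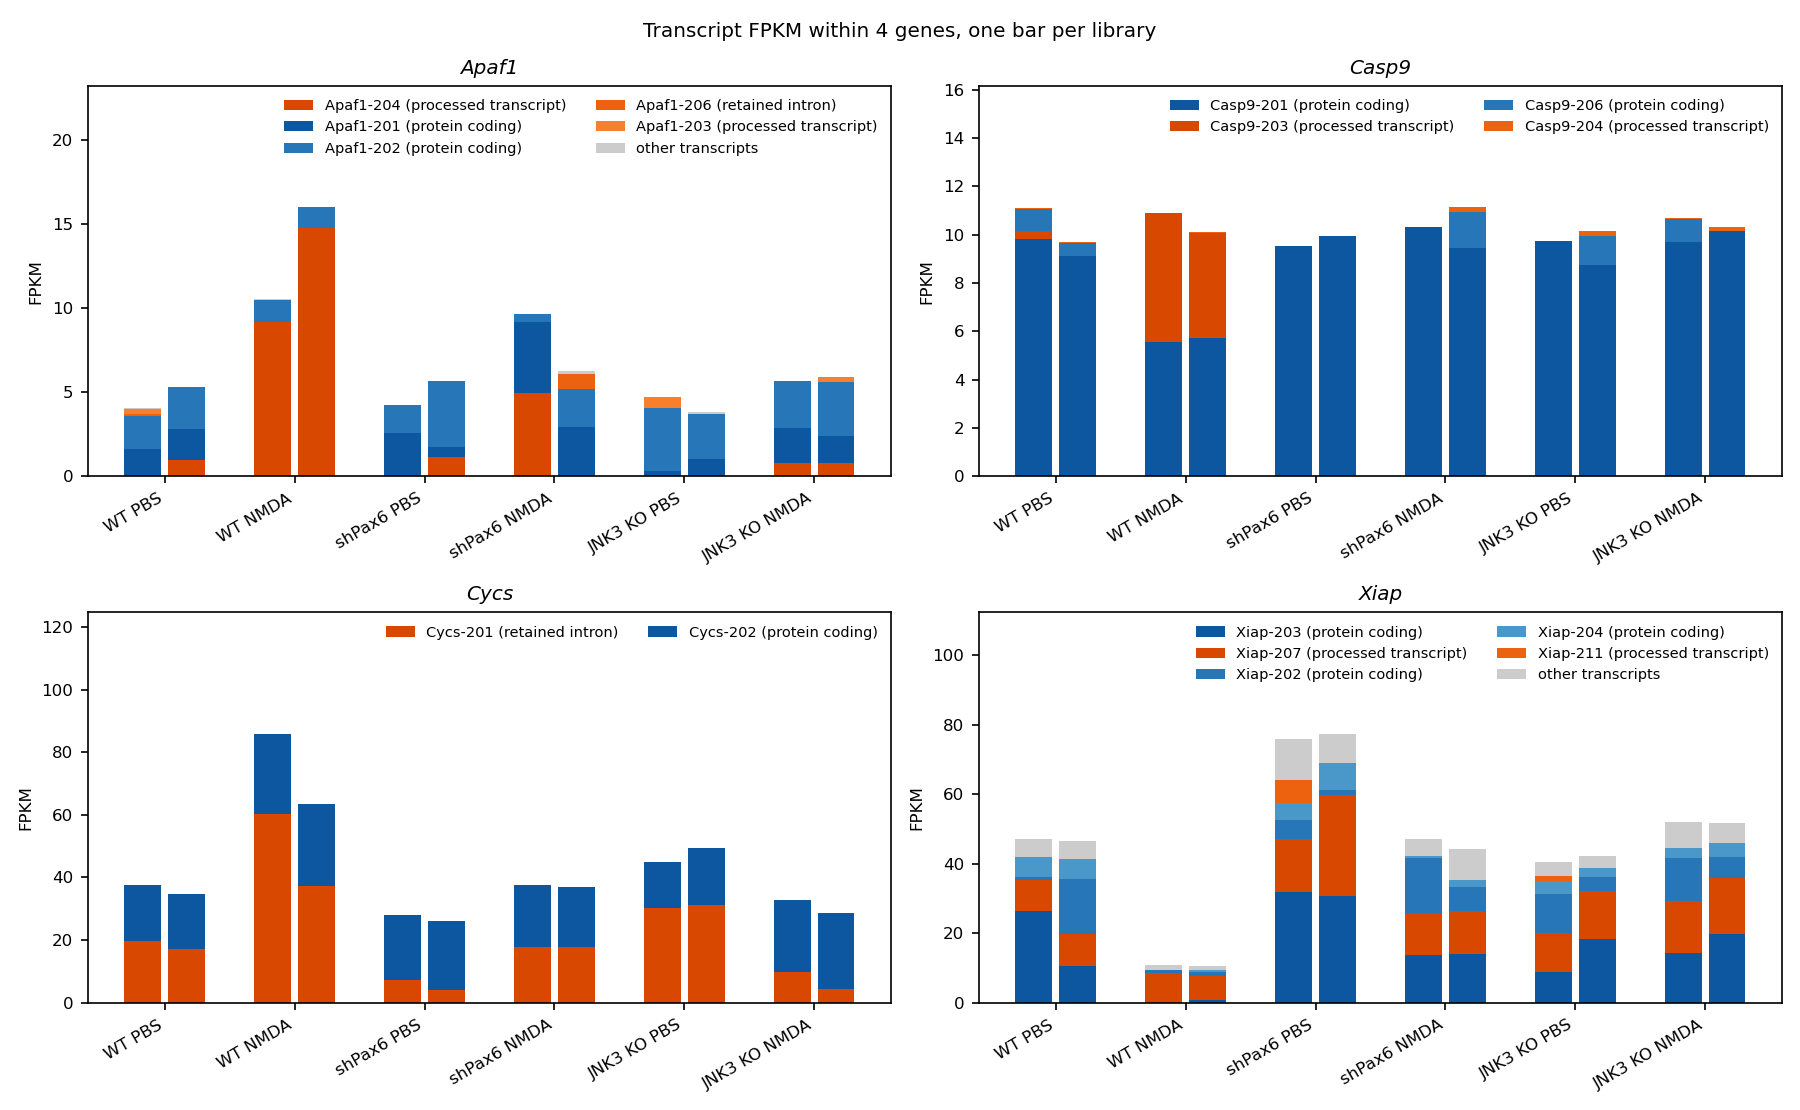
Transcript FPKM (vertical axes, from 0) stacked within Apaf1, Casp9, Cycs and Xiap, with 1 bar per library, replicate 1 on the left, blue for coding and orange for noncoding transcripts. Orange fills most of the WT NMDA bars of Apaf1 (89.5%) and Xiap (71.2% by Xiap-207), and the Casp9 bars stay near 10 FPKM while Casp9-203 takes 46.0% of them.

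To see the genes without their noncoding transcripts, the FPKM of the coding transcripts was summed per gene and tested over 13856 genes, a step chosen after the transcript values were seen. In WT retinas 6 of the 8 genes were then called, Cycs and Diablo higher and Casp2, Casp9, Apaf1 and Xiap lower, with 25.7% of all coding sums called higher and 39.8% lower. The coding sum of Apaf1 went from 3.63 and 4.33 to 1.38 and 1.27 FPKM, a change of −1.51 ± 0.16 (adjusted p = 3.77e-05), opposite in direction to the gene value. That of Casp9 went from 10.73 and 9.67 to 5.57 and 5.73 (−0.84 ± 0.10, adjusted p = 6.88e-05). For Xiap it went from 37.20 and 36.93 to 1.01 and 3.06 (−4.31 ± 0.37, adjusted p = 9.64e-06). Diablo rose by 0.74 ± 0.11 (adjusted p = 0.000337) and Cycs by 0.53 ± 0.10 (adjusted p = 0.00112).

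A second measure, also added later, multiplied each transcript's FPKM by its length in kb and summed over the gene. This length-weighted FPKM approximates the share of a library's fragments that the gene received, whichever transcript they were assigned to. For Apaf1 it went from 23.8 and 28.6 under PBS to 13.4 and 15.7 after NMDA, a change of −0.84 ± 0.12. Casp9 went from 39.4 and 36.0 to 26.3 and 26.1 (−0.52 ± 0.09). Cycs rose from 68.5 and 65.8 to 116.7 and 104.9 (0.72 ± 0.08), Diablo from 58.9 and 65.4 to 98.4 and 81.4 (0.53 ± 0.10), and Xiap fell from 280.2 and 268.3 to 54.4 and 56.7 (−2.30 ± 0.08). The gene-level rise of Apaf1 therefore went with fewer Apaf1 fragments, whereas Xiap and Casp2 fell and Cycs rose on every scale used.

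**Figure D3:**
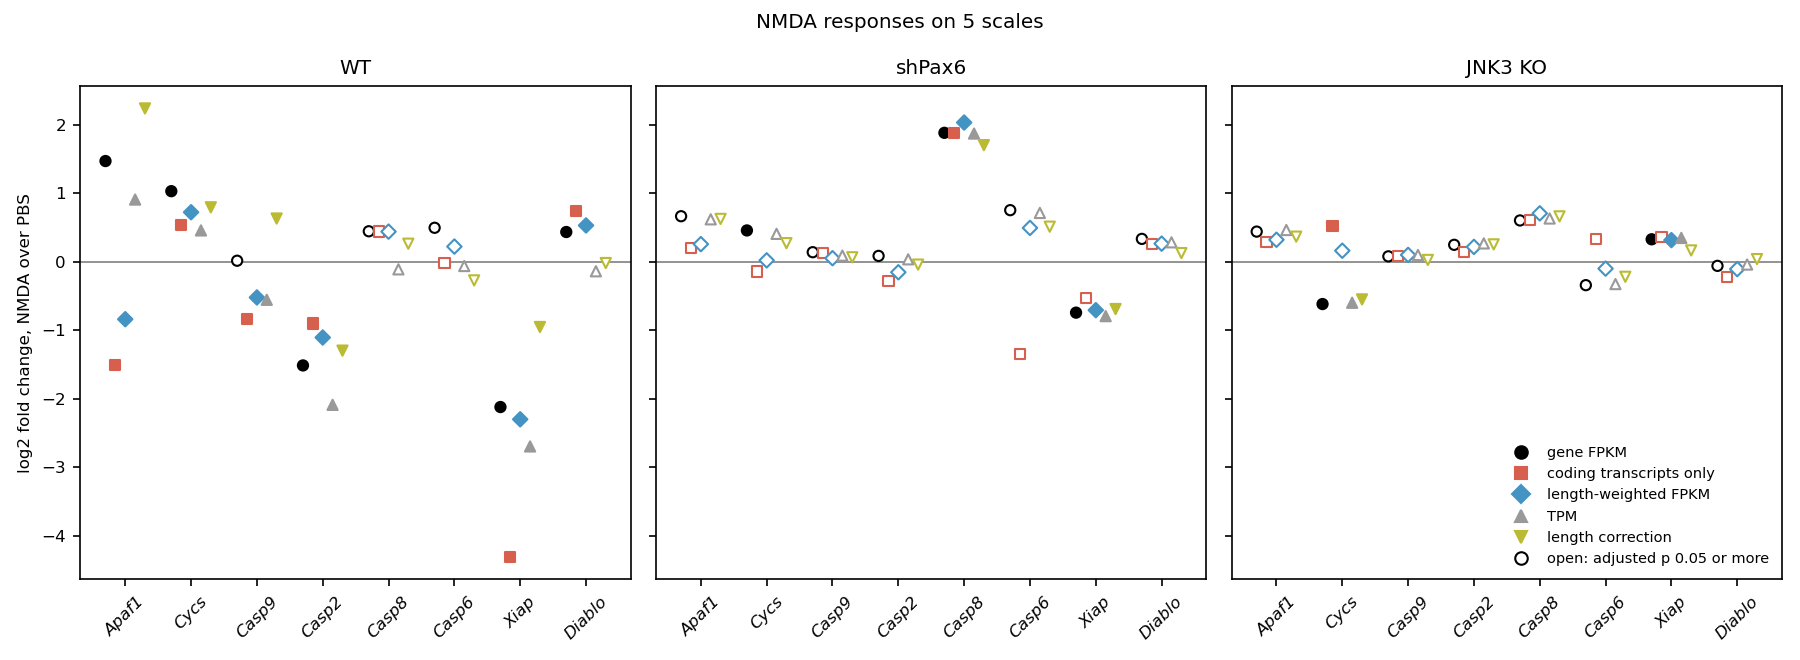
Log2 fold changes after NMDA (vertical axis) of the 8 genes in WT, shPax6 and JNK3 KO retinas on 5 scales, with filled symbols for an adjusted p under 0.05. In WT retinas Apaf1 spans 2.23 after the length trend was removed to −1.51 by coding transcripts, and Casp9 0.63 to −0.84 on the same 2 scales. In shPax6 retinas Casp8 is at 1.70 and 1.88 on these scales.

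In shPax6 retinas 3 of the 8 genes passed the gene-level test after NMDA. Casp8 and Cycs rose and Xiap fell, with 19.1% of all genes called higher and 11.0% lower, and the median of the 8 genes was 0.39 against 0.10 over all genes. Casp8 was at 1.09 and 1.14 FPKM in the shPax6 PBS libraries, the lowest of the 12, and at 4.04 and 4.72 in the shPax6 NMDA libraries, the highest. The rise was 1.88 ± 0.28 (adjusted p = 0.000975), or 3.68-fold. It was 1.88 ± 0.27 for the coding sum as well (adjusted p = 0.000862), the only one of the 8 coding sums called in shPax6 retinas (19.2% of all called higher, 13.0% lower).

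Microglia and macrophage markers and neutrophil markers stood beside the rise of Casp8. For microglia and macrophages the 12 genes summed to 190.70 to 208.66 FPKM in shPax6 PBS and to 671.34 to 689.44 in shPax6 NMDA libraries, 8 of the 12 were called higher and none lower, and none was at 0 in all libraries. In WT retinas the sum went from 112.67 to 121.77 up to 292.13 to 299.67, but the list was split, with 6 of the 12 called higher and 5 lower. In JNK3 KO retinas it went from 120.34 to 125.83 down to 90.22 to 97.65, with 1 called higher and 5 lower. Neutrophil markers went from 5.20 to 6.09 up to 67.00 to 74.27 FPKM in shPax6 retinas (6 of 7 called higher). In shPax6 PBS libraries the neutrophil sums, like Casp8, lay below their WT PBS values, whereas the microglia and macrophage sums lay above theirs. After NMDA the neutrophil sums rose in WT and fell in JNK3 KO retinas, and Casp8 was called in neither. The part of these cell types in the Casp8 values was not tested.

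Xiap was at 75.98 and 77.46 FPKM in the shPax6 PBS libraries and at 47.22 and 44.28 after NMDA, a fall of −0.75 ± 0.06 (adjusted p = 3.04e-05). After NMDA it stood close to the WT PBS level. Its coding sum went from 46.50 and 45.70 to 32.95 and 30.71 FPKM and did not pass the test (−0.53 ± 0.37, adjusted p = 0.309).

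Cycs was at 28.11 and 26.15 FPKM under PBS and at 37.52 and 36.86 after NMDA in shPax6 retinas, a rise of 0.45 ± 0.13 (adjusted p = 0.0315) that no longer passed without any 1 of the 4 libraries (adjusted p of 0.0744 to 0.131), by TPM (0.40, adjusted p = 0.0650) or after the length trend was removed (0.27, adjusted p = 0.166). The rise came with Cycs-201, which went from 7.22 and 3.97 to 17.64 and 17.83 FPKM (adjusted p = 0.0440). The coding Cycs-202 was at 20.89 and 22.18 and then at 19.88 and 19.03 FPKM (adjusted p = 0.476). Cycs-201 was 1 of 2 transcripts of the 8 genes called in shPax6 retinas, both higher, the other being the short noncoding Casp2-206, and 4.71% of all transcripts were called higher and 3.63% lower.

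The other 5 genes did not pass in shPax6 retinas. Apaf1 went from 4.22 and 5.65 to 9.63 and 6.29 FPKM (adjusted p = 0.105), and in the higher of the NMDA libraries Apaf1-204 held 4.97 FPKM against 0 in the other. Diablo went from 38.83 and 41.92 to 45.76 and 56.35 FPKM (0.33 ± 0.12, adjusted p = 0.0712). Casp2 was at 10.21 and 10.20 FPKM and then at 11.93 and 9.80. Casp9 was at 9.52 and 9.96 and then at 10.31 and 11.14, and Casp6 at 2.18 and 2.76 and then at 2.81 and 6.24.

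In JNK3 KO retinas NMDA moved 2 of the 8 genes, and each moved against its direction in WT retinas. Xiap rose and Cycs fell, with 4.33% of all genes called higher and 6.10% lower. RGC markers still fell in these retinas, from sums of 701.87 to 746.36 FPKM under PBS to 203.60 to 204.69 after NMDA, with 10 of 13 called lower. The median log2 fold change of the RGC markers was −1.92, against −2.15 in WT retinas. Neutrophil markers moved against their direction in WT retinas, from 156.40 to 170.04 FPKM under PBS to 13.28 to 14.17 after NMDA (4 of 7 called lower, none higher), and the part of either shift in these changes was not tested. Xiap was at 40.64 and 42.13 FPKM under PBS and at 52.14 and 51.59 after NMDA, a rise of 0.33 ± 0.06 (adjusted p = 0.0107). It was 0.16 ± 0.06 after the length trend was removed (adjusted p = 0.144) and 0.35 ± 0.37 for the coding sum (adjusted p = 0.609), neither of which passed. Leaving out PBS replicate 1 or either NMDA library left none of the 8 genes called, and leaving out PBS replicate 2 left Xiap alone (adjusted p = 0.128 for Cycs).

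Cycs was at 45.06 and 49.54 FPKM in JNK3 KO PBS and at 32.88 and 28.69 in JNK3 KO NMDA libraries, a change of −0.62 ± 0.13 (adjusted p = 0.0207). The transcripts went opposite ways. Cycs-201 went from 30.18 and 31.30 to 9.88 and 4.28 FPKM (adjusted p = 0.0519), and the coding Cycs-202 from 14.88 and 18.23 to 23.00 and 24.40. As a coding sum over 13856 genes Cycs rose by 0.52 ± 0.10 (adjusted p = 0.0103), the only one of the 8 called, with 6.29% of all coding sums higher and 7.17% lower. Among transcripts none of the 8 genes' was called, 2 had an unadjusted p under 0.05 in limma, and 0.537% of all transcripts were called higher and 0.775% lower.

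The other 6 genes did not pass the test in JNK3 KO retinas. Casp2 was at 7.97 and 10.22 FPKM under PBS and at 10.20 and 11.25 after NMDA, where the WT NMDA libraries had fallen to 3.01 and 3.59. Casp8 was at 2.36 and 2.03 and then at 3.33 and 3.41 (adjusted p = 0.226), and Apaf1 at 4.72 and 3.79 and then at 5.65 and 5.88 (adjusted p = 0.390). Casp9 was at 9.74 and 10.17 and then at 10.69 and 10.31, Diablo at 46.97 and 42.48 and then at 41.62 and 43.95, and Casp6 at 4.83 and 4.82 and then at 3.59 and 3.98.

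**Figure D4:**
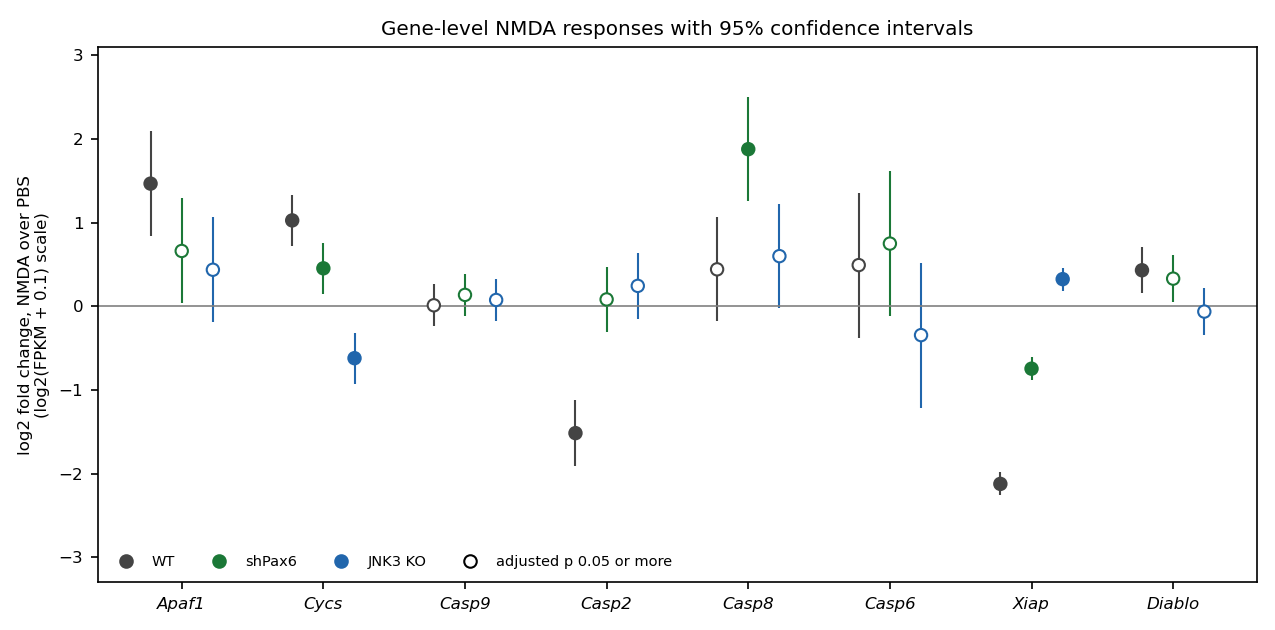
Gene-level log2 fold change, NMDA over PBS, with 95% confidence intervals, of the 8 genes in WT, shPax6 and JNK3 KO retinas (2 libraries a group), with filled points for an adjusted p under 0.05. Xiap lies at −2.12 in WT, −0.75 in shPax6 and 0.33 in JNK3 KO retinas, and Cycs at 1.03, 0.45 and −0.62.

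Whether the response of a gene differed between genotypes was tested directly, as the WT response minus that of the other genotype. Both differences use the same WT libraries. Against shPax6, 4 of the 8 genes differed. The WT response was lower for Casp2 (−1.60 ± 0.24, adjusted p = 0.000656), Casp8 (−1.44 ± 0.39, adjusted p = 0.0135) and Xiap (−1.38 ± 0.09, adjusted p = 4.64e-06) and higher for Cycs (0.57 ± 0.19, adjusted p = 0.0324), with 18.3% of all genes called higher and 31.4% lower. Against JNK3 KO, the WT response was lower for Xiap (−2.45 ± 0.09, adjusted p = 3.05e-07) and Casp2 (−1.76 ± 0.24, adjusted p = 0.000285) and higher for Cycs (1.65 ± 0.19, adjusted p = 9.13e-05) and Diablo (0.49 ± 0.17, adjusted p = 0.0386). In that comparison 23.5% of all genes were called higher and 27.9% lower. Among the 8 fits that each left out 1 library, the Cycs difference from shPax6 and the Diablo difference from JNK3 KO passed only in the fit without WT NMDA replicate 2. After the length trend was removed the Xiap difference was −0.26 from shPax6 (adjusted p = 0.0369) and −1.12 from JNK3 KO (adjusted p = 2.92e-05). The Cycs difference from shPax6 was 0.05 by TPM (adjusted p = 0.856) and 0.52 after the length trend was removed (adjusted p = 0.0558). The Diablo difference from JNK3 KO was −0.10 by TPM and −0.06 after the length trend was removed. Neutrophil markers differed in the same comparisons, with 7 of 7 higher in the WT response than in that of JNK3 KO retinas, and 1 higher and 3 lower against shPax6.

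Restricted to coding transcripts, 7 of the 8 genes differed between the WT and shPax6 responses, 2 higher and 5 lower in WT, where 18.4% of all coding sums were higher and 36.1% lower. Between WT and JNK3 KO 5 differed, 1 higher and 4 lower, against 23.4% and 33.9% of all. Apaf1, which was not called by gene FPKM, had coding differences of −1.71 ± 0.23 from shPax6 and −1.80 ± 0.23 from JNK3 KO (adjusted p = 0.000288 and 0.000163). By gene FPKM with the length trend removed they had the opposite sign, 1.61 ± 0.40 and 1.87 ± 0.40 (adjusted p = 0.0130 and 0.00647). Casp9 had coding differences of −0.96 ± 0.14 and −0.92 ± 0.14 (adjusted p = 0.000452 and 0.000478), and with the length trend removed 0.57 ± 0.15 and 0.60 ± 0.15 (adjusted p = 0.0172 and 0.0130). In WT NMDA libraries 89.5% of Apaf1 FPKM lay in Apaf1-204 (511 bases) and 46.0% of Casp9 FPKM in Casp9-203 (854 bases). Both are far shorter than the lengths that the correction used for these genes, 3927 and 3510 bases. For Cycs the coding difference between WT and JNK3 KO was 0.01 ± 0.14 (adjusted p = 0.954), in place of 1.65 for the gene, so that the gene-level difference lay in Cycs-201. Casp8 was called against shPax6 only, at −1.44, and its difference from JNK3 KO was −0.16, with an interval for the gene value of −1.04 to 0.72.

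Under PBS the genotypes were compared without NMDA, and 2 of the 8 genes were called in 1 of the 2 comparisons. Between shPax6 and WT retinas under PBS, Xiap was higher (0.71 ± 0.06, adjusted p = 0.000105) and Casp8 lower (−1.13 ± 0.28, adjusted p = 0.0228), with 5.36% of all genes called higher and 11.2% lower. The Casp8 difference no longer passed without WT PBS replicate 2 (−0.73, adjusted p = 0.143) or either shPax6 PBS library (adjusted p of 0.0884 and 0.0583). The coding sum of Xiap was 0.31 ± 0.37 (adjusted p = 0.613), and Xiap-207 had 15.17 and 29.05 FPKM in shPax6 against 8.82 and 9.19 in WT retinas. RGC markers were already low in shPax6 PBS retinas, at sums of 244.83 to 250.88 FPKM, and neutrophil markers were at 5.20 to 6.09, against 212.66 to 235.68 in WT PBS libraries. Photoreceptor markers went the other way, with all 8 rod and all 8 cone markers called higher in shPax6 PBS retinas. Microglia and macrophage markers were split, with 4 called higher and 4 lower. The part of these shifts in the Xiap and Casp8 differences was not tested. Between JNK3 KO and WT retinas under PBS none of the 8 genes was called by limma, 2 had an unadjusted p under 0.05, and 1.10% of all genes were called higher and 0.407% lower. The 8 log2 differences lay between −0.22 and 0.78, the highest being Casp6 at 4.83 and 4.82 against 3.35 and 2.30 FPKM (adjusted p = 0.393).

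Lists of other genes of the pathway gave the surroundings of these changes. Their values are on the gene FPKM scale only, with the length trend of the WT response left in. Their counts stand against the shares of all genes given above, 26.0% called higher and 33.8% lower in WT, 19.1% and 11.0% in shPax6, and 4.33% and 6.10% in JNK3 KO retinas, and their median log2 fold changes, given in that order, against −0.09, 0.10 and −0.01 over all genes. Of 5 other caspases tested, none was called higher and 2 lower in WT retinas, among them the inflammatory-type Casp12 with 1.15 and 0.29 FPKM under PBS and 0.02 and 0 after NMDA. In shPax6 retinas 2 rose and 1 fell. Casp4, the caspase that senses cytosolic lipopolysaccharide, was at 0.25 and 0.47 FPKM and rose to 6.42 and 4.27 (adjusted p = 0.00361). None of the 5 was called in JNK3 KO retinas, and the list medians were −0.38, 1.37 and −0.06.

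Death receptors and their adaptors, 10 of which were tested, rose in 5 cases in WT and 6 in shPax6 retinas and in none in JNK3 KO retinas, with no falls. Fas, the receptor of FAS ligand, went from 4.41 and 4.00 to 6.50 and 11.72 FPKM in WT retinas (1.04, adjusted p = 0.0235). In shPax6 retinas the largest rise was that of Tnfrsf10b, the TRAIL receptor, from 0.69 and 0.25 to 2.32 and 1.68 FPKM (adjusted p = 0.0141). The list medians were 0.45, 0.84 and 0.25 in WT, shPax6 and JNK3 KO retinas.

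Among 8 other IAP proteins and IAP regulators, 2 rose and 2 fell in WT, 4 rose and 1 fell in shPax6, and 1 fell in JNK3 KO retinas (medians of 0.07, 0.44 and −0.06). Htra2, a mitochondrial protease that like DIABLO antagonizes IAP proteins, rose from 22.35 and 20.67 to 37.30 and 37.14 FPKM in WT retinas (0.79, adjusted p = 0.000234). Birc6, a giant IAP, fell by 0.76 on the log2 scale (adjusted p = 0.00369), from 25.41 and 30.46 FPKM to 18.71 and 14.28. In shPax6 retinas Birc3, also called cIAP2, rose from 0.94 and 0.38 to 3.03 and 2.92 FPKM (adjusted p = 0.00582). Septin4, whose ARTS form binds XIAP, rose from 83.96 and 89.35 to 142.12 and 126.17 FPKM in WT retinas (0.63, adjusted p = 6.59e-05), and fell by 0.47 in shPax6 and by 0.34 in JNK3 KO retinas (adjusted p = 0.00138 and 0.0215).

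Upstream of cytochrome c release, Bax, which forms pores in the mitochondrial outer membrane, rose from 34.00 and 41.09 to 117.80 and 112.67 FPKM in WT retinas (1.62, adjusted p = 7.07e-06). In shPax6 retinas Bax rose as well, from 43.88 and 39.48 to 49.04 and 63.70 FPKM (0.42, adjusted p = 0.0404). It was not called in JNK3 KO retinas, with 44.64 and 45.30 FPKM under PBS and 47.39 and 41.82 after NMDA. Of the 7 mitochondrial effectors tested, 3 rose in WT and 2 in shPax6 retinas, where the related Bak1 led with 0.89 (adjusted p = 0.0105). In JNK3 KO retinas 1 fell, Aifm3, from 2.60 and 1.85 to 0.86 FPKM in both libraries (adjusted p = 0.0446). The list medians were 0.36, 0.21 and −0.01.

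The 10 caspase substrates and nucleases tested had 2 rises and 4 falls in WT, 1 and 3 in shPax6, and 2 and 0 in JNK3 KO retinas (medians of −0.40, −0.15 and 0.02). Lmna, the A-type lamin that caspase 6 cleaves, rose in all 3 responses, by 1.38, 1.36 and 0.55 (adjusted p = 1.82e-05, 9.22e-05 and 0.0303). Rock1, a kinase activated by caspase cleavage, fell from 13.48 and 11.50 to 1.94 and 2.42 FPKM in WT retinas (adjusted p = 2.34e-05), and in shPax6 retinas the largest fall was that of Gas2 (−1.05, adjusted p = 0.0213).

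The last list, drawn up for apoptosome regulators, held 7 genes, and the part of each in the apoptosome was not tested. Of these, 3 rose and 4 fell in WT, 2 rose in shPax6, and 1 rose and 1 fell in JNK3 KO retinas (medians of −0.21, 0.26 and −0.10). Hspb1, a small heat shock protein that binds cytochrome c, went from 7.11 and 5.42 to 16.60 and 12.35 FPKM in WT (adjusted p = 0.00177) and from 7.44 and 5.25 to 76.92 and 61.15 in shPax6 retinas (3.43, adjusted p = 1.10e-05). Its JNK3 KO values were 5.34 and 4.68 under PBS and 5.09 and 4.01 after NMDA. Hells, called lower in WT retinas (adjusted p = 0.00244), was low throughout, at 0.22 and 0.27 FPKM after NMDA. In JNK3 KO retinas Hspa4 rose by 0.33 and Anp32a fell by 0.20 on the log2 scale (adjusted p = 0.0304 and 0.0483).

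The 8 genes differed in how steady their gene-level FPKM was. Casp9 stayed between 9.52 and 11.14 in all 12 libraries, while Xiap ranged from 10.62 to 77.46 and Cycs from 26.15 to 85.95. The steady gene value of Casp9 did not extend to its coding sum or its length-weighted FPKM. In WT retinas the coding sum went from 10.73 and 9.67 FPKM under PBS to 5.57 and 5.73 after NMDA. The length-weighted FPKM of Casp9 went from 39.4 and 36.0 to 26.3 and 26.1. The protein-coding genes whose values went most closely with each member over the 12 libraries, on log2(FPKM + 0.1) among 12976 genes, are given as a description, since libraries of a group share their values. For Xiap they were Synrg and Ddx19b (Pearson r of 0.996 and 0.994), and for Casp2 Ppp1cb and Ankrd12 (0.992 and 0.991). Apaf1 went with Sec63 and Thoc1 (0.956 and 0.947), Cycs with Pabpn1 and Yars (0.955 and 0.953), Casp8 with Arl6ip1 and F13a1 (0.954 and 0.950) and Diablo with Fcor and Ppp1r18 (0.932 and 0.926). The lowest values were those of Casp6, with Bak1 and Zfp94 (0.869 and 0.834), and Casp9, with Hsd3b7 and Ier3ip1 (0.845 and 0.831).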

How the data were processed

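By the study's methods and the submitters' processing notes, the authors aligned paired-end reads to GRCm38.p6 with STAR 2.7.1a, quantified with RSEM 1.3.3, tested with edgeR 3.36.0 in R 4.1.0, and deposited a gene and a transcript table in FPKM, the only unit used here. Read depth cannot be had from FPKM. Here log2(FPKM + 0.1) of features whose mean exceeded 1 FPKM in 1 or more groups was fitted with 6 group means (6 residual degrees of freedom) in limma 3.58.1 (lmFit, eBayes with an intensity trend; R 4.3.3, with version 1.17.8 of data.table) over all 16471 genes or 49940 transcripts, with Benjamini-Hochberg adjustment over all of them and calls at 0.05. The fit was tested on simulated data. The members and the gene lists were chosen with earlier results of these data known.

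Named genes were the 8 members, their transcripts above the filter, Pax6 and Mapk10, for each pathway list the called gene with the largest rise and the largest fall in each NMDA response, and the 2 protein-coding genes most correlated with each member. The overlapping genes Cela2a, Ctrc and Gm49027 were added where a result turned on them, and 1 gene that the rule names is not reported here. Lengths, types and exons came from GENCODE M21 (99.53% of genes and 99.14% of transcripts matched), promoters from RefSeq (all 8 members matched; Python 3.11.15, pandas 2.3.3, matplotlib 3.10.9). Length-weighted FPKM used the spliced length in place of RSEM's effective length, which overstates the weight of short transcripts. Libraries of a group differed by a median of 0.11 to 0.25 on the log2 scale across genes. Alternatives were other pseudocounts, filters and scalings, a length correction (lowess, span 0.3), the spread of the compared groups only, no trend, a replicate block, an unadjusted p under 0.05 with a fold above 2 (the study's kind of rule), and each library left out.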

Additional observations from a re-analysis of the deposited data

Results flagged for a closer look

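The tests of a difference between NMDA responses passed for 8 pairs of a gene and a comparison, each at an adjusted p under 0.05 in limma. Between WT and shPax6 retinas they were Xiap (−1.38), Casp8 (−1.44), Casp2 (−1.60) and Cycs (0.57), as the WT response minus the shPax6 response on the log2(FPKM + 0.1) scale. Between WT and JNK3 KO retinas they were Xiap (−2.45), Casp2 (−1.76), Cycs (1.65) and Diablo (0.49). In WT retinas Xiap fell in both libraries against both PBS libraries, and in JNK3 KO retinas it rose in both. The Cycs difference between WT and JNK3 KO retinas was 0.01 for the coding transcripts, and the Diablo difference was −0.10 on the TPM scale. Between WT and shPax6 retinas the Xiap difference was −0.26 after the length trend was removed (adjusted p = 0.0369), and the Cycs difference was 0.05 on the TPM scale (adjusted p = 0.856).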

How the results depend on the processing

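Of the results of single members that passed in at least 1 setting, 314 values under other settings and 133 with 1 library left out kept direction and side of the threshold, 31 and 30 lost the call, 17 and 4 gained it, and 28 and 5 changed sign. Members called in no setting changed sign in some of them and are not counted. The cause was not tested.

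In WT retinas Casp9 was −0.56 by TPM, −0.068 by 75th percentile scaling, −0.84 by coding transcripts and −0.52 by length-weighted FPKM, Apaf1 −1.51 and −0.84 by the last 2, Casp8 −0.11 by TPM, and Diablo −0.14 by TPM and −0.021 with the length correction. By coding transcripts Casp6 and Cycs were −1.35 and −0.15 in shPax6 retinas. By coding transcripts and length-weighted FPKM Cycs was 0.52 and 0.16 in JNK3 KO retinas, and 0.26 and 0.074 between shPax6 and WT under PBS. For WT minus shPax6, Apaf1 was −1.71 and −1.10 on these 2 scales, Diablo −0.42 by TPM, −0.13 by quantile normalization and −0.15 with the length correction, and Casp9 0.27 and 0.57 on the latter 2. For WT minus JNK3 KO, Apaf1 was −1.80 and −1.16, Diablo −0.10 by TPM and −0.057 with the length correction, and Casp9 0.20 by quantile normalization and 0.60 with the length correction. With 1 library left out, Casp9 ranged from −0.085 to 0.11 in WT and from −0.16 to 0.034 for WT minus JNK3 KO, and Diablo from −0.050 to 0.25 for WT minus shPax6.

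In shPax6 retinas 1 member was called in place of 3 with the spread of the compared groups only, with coding transcripts, and at an unadjusted p under 0.05 with a fold above 2. In JNK3 KO retinas 1 was called in place of 2 with the compared groups' spread, the length correction, coding transcripts or length-weighted FPKM, 0 under the fold rule, and 0 to 1 with 1 library left out. Between shPax6 and WT under PBS 1 was called in place of 2 with the compared groups' spread, coding transcripts or the fold rule, and 1 to 2 with 1 library left out. For WT minus shPax6, 7 were called by coding transcripts in place of 4. Of transcripts, shPax6 retinas had 1 in place of 2 without a filter, with a filter on the overall mean, by TPM and by 75th percentile scaling, 5 under the fold rule and 0 to 4 with 1 library left out. JNK3 KO retinas had 1 in place of 0 with a pseudocount of 1 or 0.5, the filter on the overall mean, quantile normalization, the fold rule or a replicate block, and 0 to 1 with 1 library left out.

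The replicate numbers left no mark of a pairing across groups in the values, as the deviations of same-numbered libraries correlated at −0.0973 to 0.0858. Whether such libraries shared animals or a preparation cannot be told from these correlations, and the labels do not say. With the replicate block 5, 3 and 2 members were called in WT, shPax6 and JNK3 KO retinas, as without it, and 14 transcripts in place of 13 in WT. With 2 libraries a group, a fit that left out 1 assumed that the lone library varied like the other groups. FPKM give no read depth, so low values such as those of Casp8 and Casp6 carry an unknown counting error.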
